A study of Solanum lycopersicum with 18 samples.

Results

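The 200 genes described here were those whose transcripts peaked most strongly in the meristem of WT tomato roots. They were chosen by their mean abundance in the 3 WT libraries of each root zone, in TPM, a measure that scales reads by transcript length and by the library's total. Genes with a WT meristem mean of at least 20 TPM were ranked by the meristem mean plus 1 over the larger of the elongation and differentiation zone means plus 1, and the first 200 of 6365 ranked genes were kept, out of 29922 genes in all. Seedlings were 7 days old and came from 2 genotypes of the 'Ailsa Craig' background, WT and *dgt*, the latter carrying the dgt1-1 allele of DIAGEOTROPICA (DGT), a cyclophilin needed for normal auxin response. Each of the 3 zones was dissected from both genotypes in 3 biological replicates, 18 libraries in all, and each replicate pooled many root portions. A whole zone holds many cell types, so fewer cells of a type and less RNA per cell cannot be told apart in these values.

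The root meristem is the zone at the tip where cells divide before they elongate and then differentiate. Dividing cells build DNA, chromatin and ribosomes, and transcripts of that machinery are commonly highest there. Tomato roots also make steroidal glycoalkaloids such as alpha-tomatine, bitter defence compounds built from cholesterol by the GLYCOALKALOID METABOLISM (GAME) enzymes, several of which are encoded side by side in the genome. Auxin helps to set the size of the root meristem, and the *dgt* mutation makes tomato resistant to auxin.

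The libraries held between 17919441 and 29133603 expected counts, the highest in WT meristem replicate 2. That library stood apart from the other WT meristem libraries: it had the highest TPM of the 3 for 93 members and the lowest for 71, with a median transcript length of 947 bases in the first group and 1763 bases in the second. The median coefficient of variation of the members over the meristem libraries was 12.7% in WT and 6.64% in *dgt*, and 17 members in WT and 9 in *dgt* exceeded 30%. The widest spread in WT belonged to LOC112941225, a small nucleolar RNA of 77 bases, and then to LOC101262139, with 90.9, 16.5 and 97 TPM, LOC101254305, with 27.7, 8.85 and 31.4 TPM, LOC101244431, with 26.1, 10.2 and 29 TPM, and LOC101247526, with 25.2, 10.8 and 26.5 TPM. In the latter 4 genes WT replicate 2 was the low library, and their *dgt* meristem values lay between the WT extremes. None of the 4 passed the comparison of *dgt* with WT in the meristem, and without WT replicate 2 all 4 passed as lower in *dgt*, with log2 fold changes of -1.32 for LOC101262139 (edgeR adjusted p = 4.59e-06), -0.64 for LOC101254305 (0.000264), -0.93 for LOC101244431 (2.25e-05) and -0.76 for LOC101247526 (9.58e-05). The 4 genes were picked for their spread in WT. Leaving out their low library raises the WT mean and narrows the WT spread, which favours such a fall. Values with and without WT replicate 2 are given where it moved a count.

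The zone labels were set beside symbol lists that did not enter the choice. The summed TPM of 23 cell cycle regulators was 1023 to 1127 in the WT meristem. It was 408 to 435 in the WT elongation zone and 456 to 516 in the WT differentiation zone. In *dgt* the ranges were 1012 to 1047, 507 to 531.5 and 456 to 513.5. The gene cycD3 alone had a mean of 353 TPM in the WT meristem, and some regulators, such as ccs52A and krp3, were lowest there. None of those 23 genes was a member. The gene cycd3c3 had a WT ratio of 9.48, above that of many members, but its WT meristem mean of 17.5 TPM was under the limit of 20 TPM. Among the genes over that limit the list came closest with cdc20-1, an activator of the complex that ends mitosis. It was at rank 237 with a WT ratio of 5.58. LOC101248926 (CYCB1-2), a mitotic cyclin, was at rank 254 with a ratio of 5.48. Wall loosening genes summed highest in the WT elongation zone, at 3103 to 3755 TPM, against 1364 to 1605 TPM in the WT differentiation zone. Mature root genes summed to 31350 to 36670 TPM in the WT elongation zone and 31300 to 41110 TPM in the WT differentiation zone, which overlapped. Stem cell and root patterning genes summed lower in the WT meristem (51.8 to 89.2 TPM) than in the WT differentiation zone (132 to 156 TPM).

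The members ranged in WT meristem mean from 20.0 to 5640 TPM, with a median of 72.5 TPM, against medians of 4.64 TPM in the WT elongation zone and 4.80 TPM in the WT differentiation zone. The ratio that ranked them ran from 5.90 to 91.4 with a median of 7.87. The last genes inside were LOC101257446 and LOC101254922, both at 5.90, and the first outside were LOC101252193 and LOC101255652, both at 5.89. The larger of the other zones was the elongation zone for 106 members and the differentiation zone for 94. The RefSeq table of assembly SLM_r2.1 listed 186 of the 200 genes as protein coding, 4 as long noncoding RNAs, LOC101258971 among them, 1 as a pseudogene and 4 as small nucleolar RNAs, whose TPM rests on very short transcripts, and 5 were not matched to it. Only 15 carried a gene symbol in the files or in that table, and the remaining 185 are named by locus identifier alone, with no role given.

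The highest WT ratio belonged to LOC101257608, which had 299, 368 and 275 TPM in the 3 WT meristem libraries, 5.86, 0.49 and 0.99 TPM in the elongation zone and 1.21, 0.92 and 1.73 TPM in the differentiation zone. LOC101258971 followed with a ratio of 88.4 and WT meristem values of 184, 269 and 199 TPM. The third, LOC101252141, had a ratio of 59.6. In these 3 genes every WT meristem library was above every other WT library, as the choice required of their means. Of the next 7 genes, ORFX had a ratio of 41.6, yfe37 of 40.4, LOC101252050 of 38.5, LOC101267776 of 35.3, LOC101251384 of 35.1, LOC101262092 of 29.5 and LOC101257909 of 29.1. ORFX is the fw2.2 gene, a negative regulator of cell division known from tomato fruit size.

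The most abundant members were LOC101256568, LOC544002, LOC104646711, RPL3 and LOC112941086. LOC101256568 reached 5140, 5970 and 5810 TPM in the WT meristem and LOC104646711 reached 3026, 4196 and 2536 TPM. RPL3, a protein of the large ribosomal subunit, had 2215, 3146 and 2279 TPM. Together the 200 members made up 5.81%, 6.86% and 5.95% of all TPM in the WT meristem libraries. Their share was between 0.630% and 0.784% in the WT elongation zone and between 0.410% and 0.427% in the WT differentiation zone.

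In *dgt* the members kept their place along the root. All 200 were higher in the *dgt* meristem than in both other *dgt* zones, by more than 2-fold and past the adjusted p-value in each comparison, where 21.8% of the 21665 genes tested met the same condition, as did 33.3% of the tested genes with a WT meristem mean of at least 20 TPM. The *dgt* libraries took no part in the choice of members, so this comparison is independent of it. Against the *dgt* elongation zone the log2 fold changes ran from 1.59 to 9.45 with a median of 3.89 (-0.02 over all genes tested, of which 26.6% were higher over 2-fold), and against the *dgt* differentiation zone from 2.71 to 10.3 with a median of 4.27 (0.16 over all genes tested, of which 31.6% were higher over 2-fold). Each gene was tested on the 9 *dgt* libraries by edgeR's quasi-likelihood test, and the count of 200 was found under every alternative tried.

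The combined share of the members in the *dgt* meristem was 5.72%, 5.78% and 5.57% of all TPM. These values lay below all 3 WT meristem libraries, the lowest of which was at 5.81%. The WT libraries chose the members for high meristem values, which favours a lower share in the *dgt* meristem. The share in the *dgt* elongation zone was between 0.500% and 0.699%, which overlapped WT, and in the *dgt* differentiation zone between 0.336% and 0.374%, below every WT library of that zone.

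The median ratio of meristem to larger other zone was 8.10 in *dgt* and 7.87 in WT, and 94 members had a higher and 106 a lower ratio in *dgt*. Applying the same rule to the *dgt* libraries, 119 of the 200 members were again among the first 200 genes. Of the 81 that were not, 10 fell short of the mean of 20 TPM in the *dgt* meristem, 48 ranked in the next 200 places and 23 ranked later, down to rank 1421 of 6544. The 81 genes that took their places were, in WT, under the mean of 20 TPM for 28 genes and ranked in the next 200 places for 30.

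**Figure D1:**
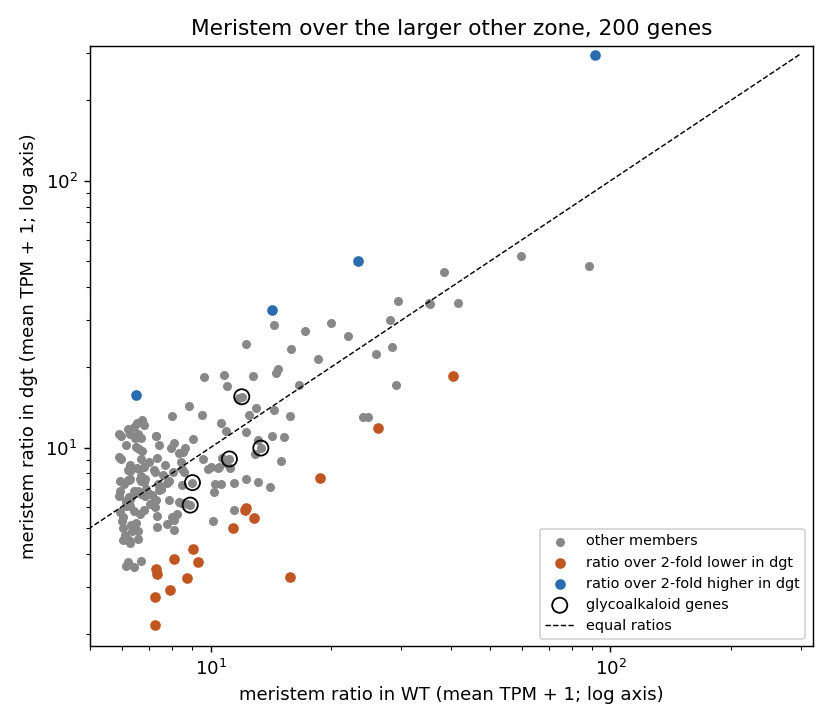
Ratio of the meristem mean to the larger other zone mean (TPM plus 1, log axes) in WT and in *dgt* for the 200 members, one point per gene, with equal ratios on the dashed line. WT ratios start at 5.90, since the members were chosen on them, while *dgt* ratios ran from 2.16 to 296. Orange points mark the 17 members with a ratio lower by more than 2-fold in *dgt*, blue points the 4 with a ratio higher by more than 2-fold, and rings the 5 glycoalkaloid genes.

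The *dgt* ratio was more than 2-fold below the WT ratio in 17 members and more than 2-fold above it in 4. The weakest peak in *dgt* was that of LOC101252681, with a ratio of 7.27 in WT and 2.16 in *dgt*. Its TPM was 29.7, 28.5 and 32.1 in the *dgt* meristem libraries, 9.49, 17.1 and 13.5 in the *dgt* elongation zone and 3.34, 3.68 and 1.81 in the *dgt* differentiation zone. All 3 *dgt* meristem libraries were still above every other *dgt* library. At the other end, LOC101257608 went from a ratio of 91.4 to 296, LOC104646517 from 23.3 to 50.2 and LOC101243798 from 14.2 to 32.7. The fourth was the small nucleolar RNA LOC112941225. These ratios are given as a description, since the WT ratio chose the genes.

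Several of the named members belong to glycoalkaloid synthesis. A list of 13 glycoalkaloid genes, put together after values had been seen, held 5 members, and 7 of the 13 passed 20 TPM in the WT meristem. The members were LOC544002, which the RefSeq table lists under gad2 with the synonyms 16DOX and GAME11 and which oxidises the steroid skeleton, GAME1, the galactosyltransferase that attaches the first sugar, LOC101254402 (GAME17) and LOC101254109 (GAME18), glucosyltransferases that extend the sugar chain, and LOC101258696 (JRE4), an ERF transcription factor that regulates the pathway in tomato. WT ratios were 9.01 for GAME11, 8.9 for GAME1, 11.2 for GAME17, 13.4 for GAME18 and 12 for JRE4. The list's other genes over 20 TPM were SSR2, a sterol side chain reductase, with a ratio of 1.83, and GABA-TP2 (GAME12), a transaminase, with 1.55.

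GAME11 had 4175, 4370 and 3500 TPM in the WT meristem and 3667, 3717 and 3582 TPM in the *dgt* meristem. The groups overlapped there (log2 fold change -0.32, SE 0.28, edgeR adjusted p = 0.444). In the differentiation zone it had 29.2, 26.7 and 24.6 TPM in WT and 70.7, 89 and 53.4 TPM in *dgt*, without overlap, and it rose in *dgt* (log2 fold change 1.27, SE 0.19, edgeR adjusted p = 0.000505). GAME1 moved the other way in the same zone. It had 21.9, 22.8 and 20.9 TPM in WT and 6.79, 8.61 and 7.13 TPM in *dgt*, without overlap (log2 fold change -1.66, SE 0.15, edgeR adjusted p = 1.72e-05). In the meristem GAME1 had 584, 589.6 and 532 TPM in WT and 363, 358 and 384 TPM in *dgt*, again without overlap. This fall was under 2-fold (log2 fold change -0.80, SE 0.21, edgeR adjusted p = 0.0313), and its adjusted p-value was 0.0828 with upper-quartile scaling and between 0.0647 and 0.137 without WT replicate 1 or any 1 *dgt* replicate.

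GAME18 had 246, 233 and 239.7 TPM in the WT meristem and 250.2, 231 and 239.6 TPM in the *dgt* meristem (log2 fold change -0.16, SE 0.18, edgeR adjusted p = 0.544). GAME17 had 268, 263 and 281 TPM in WT and 206, 201 and 225 TPM in *dgt*, lower in every *dgt* library, but it missed the threshold (log2 fold change -0.53, SE 0.18, edgeR adjusted p = 0.0678) except with DESeq2, at an adjusted p-value of 0.0152, and without WT replicate 2, at 0.00849. JRE4 had 92.3, 128 and 114 TPM in WT and 145, 123 and 133 TPM in *dgt*, which overlapped (log2 fold change 0.07, SE 0.24, edgeR adjusted p = 0.849), and without WT replicate 2 its log2 fold change was 0.39 with an adjusted p-value of 0.0140. In the gene order of the SLM_r2.1 table, LOC101255510, GAME11, GAME17, GAME1 and GAME18 were 5 members among 7 neighbouring genes. The other 2 were GAME2, a glycosyltransferase of the same pathway, with WT and *dgt* meristem means of 0.0533 and 0.23 TPM, and LOC112939989, with 4.48 and 3.84 TPM. LOC101255510 had 642, 642 and 639.7 TPM in the WT meristem and 566, 521 and 561 TPM in the *dgt* meristem (log2 fold change -0.39, SE 0.21, edgeR adjusted p = 0.212). Expected counts of GAME1, GAME11 and GAME17 were not whole in any of the 18 libraries, so reads were divided with other transcripts. This held for 50 of the 200 members.

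**Figure D2:**
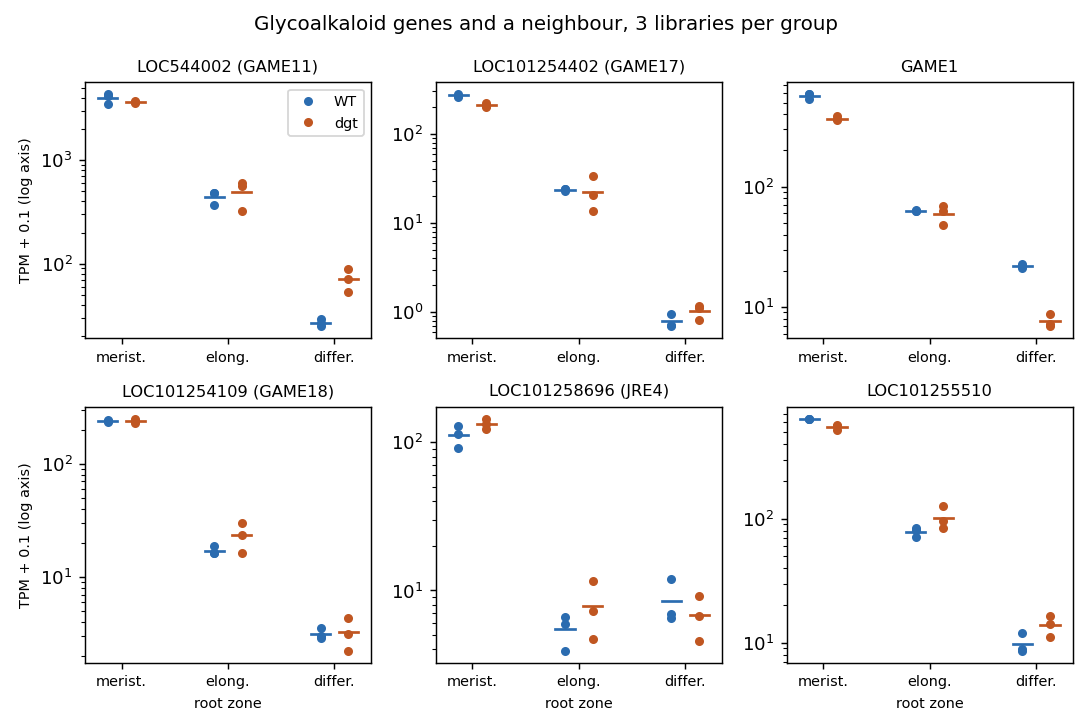
TPM plus 0.1 (log axis) by root zone for the 5 glycoalkaloid members and LOC101255510, the member beside them, with one point per library, 3 libraries for each genotype and zone, and a bar at each mean. GAME1 was lower in all 3 *dgt* libraries of the differentiation zone and GAME11 higher in all 3.

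The other members with symbols included genes of growing cells. RPL3 had 2481, 2430 and 2201 TPM in the *dgt* meristem, which overlapped WT (log2 fold change -0.31, SE 0.31, edgeR adjusted p = 0.508). pcna, the sliding clamp of DNA polymerase, had 353, 539 and 351 TPM in the WT and 352, 400.5 and 311 TPM in the *dgt* meristem, which overlapped (log2 fold change -0.44, SE 0.31, edgeR adjusted p = 0.335). In the differentiation zone pcna fell from 58.8, 64.6 and 60.1 TPM in WT to 34.9, 31.1 and 31.5 TPM in *dgt* (log2 fold change -1.03, SE 0.12, edgeR adjusted p = 8.79e-05). The *dgt* libraries there were all below WT. SlHDT3, a plant histone deacetylase of the HD2 type, had 1545, 1541 and 1666 TPM in the WT and 1335, 1332 and 1481 TPM in the *dgt* meristem (log2 fold change -0.36, SE 0.21, edgeR adjusted p = 0.253). pyrB, aspartate carbamoyltransferase of pyrimidine synthesis, had 146, 169.8 and 151 TPM in WT and 144, 157 and 222 TPM in *dgt* (log2 fold change -0.02, SE 0.25, edgeR adjusted p = 0.959). SlHDT3 was lower in each *dgt* library and the pyrB groups overlapped, and neither passed in the meristem.

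ORFX had 65.2, 59.1 and 64.3 TPM in the WT meristem and 67.4, 74.3 and 74.7 TPM in the *dgt* meristem. Every *dgt* library was higher on the TPM scale, but the test on scaled counts did not pass (log2 fold change 0.04, SE 0.16, edgeR adjusted p = 0.881). The scales differed over the members as a whole, whose median log2 change in the meristem was -0.06 on the TPM scale and -0.25 on the count scale. The endoglucanase gene cel7, whose enzyme cuts beta-glucans of the cell wall, had 84.6, 53 and 83.2 TPM in WT and 134, 128 and 119.7 TPM in *dgt*. It was higher in all 3 *dgt* libraries, by less than 2-fold (log2 fold change 0.67, SE 0.14, edgeR adjusted p = 0.0151), with an adjusted p-value of 0.0911 without *dgt* replicate 1 and 0.0838 without *dgt* replicate 2. ER5, an ethylene-responsive gene related to late embryogenesis abundant proteins, had 47.2, 45.4 and 48.6 TPM in WT and 67.8, 79.5 and 75.8 TPM in *dgt* (log2 fold change 0.50, SE 0.17, edgeR adjusted p = 0.066). It passed with upper-quartile scaling, at an adjusted p-value of 0.0375, with DESeq2, at 0.0387, and without WT replicate 2, at 0.000434.

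The cytokinin response factors LOC101256485 (CRF10) and LOC101244085 (CRF6), transcription factors of the ERF family, were also members. CRF10 had 35.9, 37.3 and 34.3 TPM in the WT and 41.7, 41.1 and 41.1 TPM in the *dgt* meristem (log2 fold change 0.03, SE 0.18, edgeR adjusted p = 0.921). CRF6 had 22.7, 28.2 and 28.2 TPM in WT and 30.9, 25.3 and 27.2 TPM in *dgt* (log2 fold change -0.10, SE 0.21, edgeR adjusted p = 0.751). Neither was called in the meristem. In the elongation zone CRF6 fell from 4.27, 2.73 and 3.18 TPM to 1.15, 1.73 and 1.45 TPM (log2 fold change -1.58, SE 0.29, edgeR adjusted p = 0.00218), with no overlap. In the differentiation zone it fell as well (log2 fold change -1.13, SE 0.32, edgeR adjusted p = 0.0231), but there the adjusted p-value was 0.0685 without WT replicate 1, 0.0645 without *dgt* replicate 1 and 0.0962 without *dgt* replicate 2.

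The comparison of *dgt* with WT in the meristem asked how the peak level itself changed with the mutation. Of the 200 members, all tested, 9 were lower in *dgt* by more than 2-fold (background 2.72% of 19926 genes tested, 4.21% of those over 20 TPM) and 4 were higher by more than 2-fold (background 10.1% and 1.35%), while 187 were not called. At any fold, 30 members passed as lower (background 8.31%, and 15.3% of genes over 20 TPM) and 13 as higher (background 14.5% and 4.1%). The WT libraries of this comparison are those that chose the members, and a choice for high WT meristem values favours a fall. With members chosen without 1 WT replicate and *dgt* compared with that WT meristem library alone, the median log2 TPM change was 0.034, 0.061 and 0.035. For the members as chosen, compared with the same single libraries, it was 0.0050, -0.054 and 0.0011. Against the mean of the 3 WT libraries it was -0.06 for the members and -0.07 for all genes over 20 TPM.

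The median edgeR log2 fold change of the members was -0.25, near the -0.24 of genes over 20 TPM, and it was -0.04 over all genes tested. With upper-quartile scaling the medians of the members and of all genes tested were -0.11 and 0.11, so that scaling shifted all genes upwards. Without WT replicate 2 the members' median was -0.01. The number past the adjusted p-value at any fold was 43 (background 22.8%). Leaving out WT replicate 2 raised it to 107, WT replicate 1 lowered it to 23, and the 3 *dgt* replicates lowered it to 11, 12 and 12. On the TPM scale the groups did not overlap for 107 members, 56 lower and 51 higher in *dgt*, where 41.5% of all genes tested did not overlap, 9.89% lower and 31.6% higher.

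**Figure D3:**
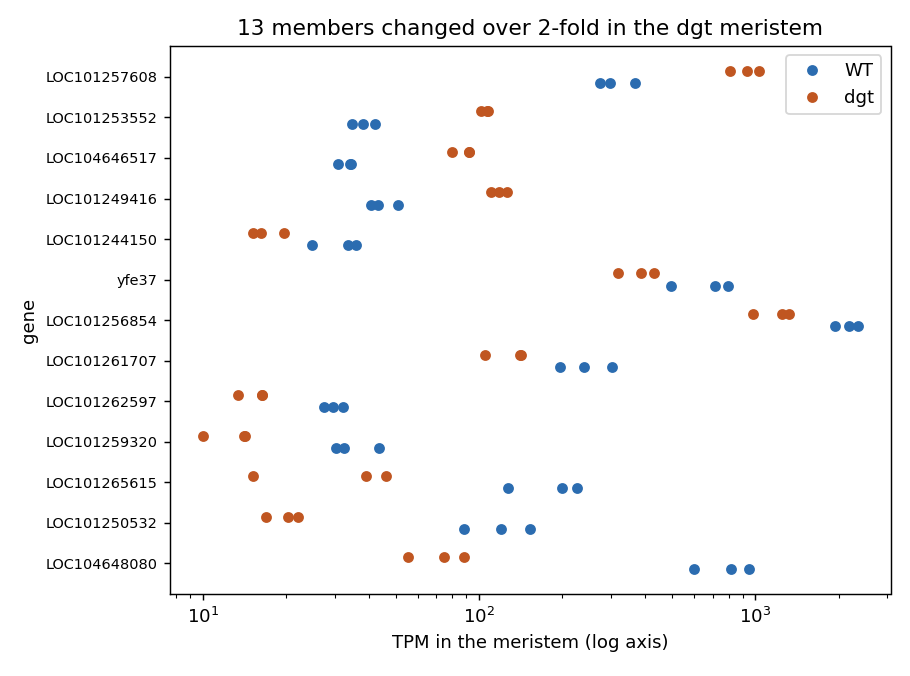
TPM in each meristem library (log axis) for the 13 members that changed by more than 2-fold in *dgt*, ordered by log2 fold change, with 3 WT and 3 *dgt* points per gene. The 4 genes at the top were higher in every *dgt* library and the 9 below were lower in every *dgt* library.

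The deepest fall was that of LOC104648080, a long noncoding RNA of 503 bases, from 601, 816 and 949 TPM in the WT meristem to 74.9, 88.2 and 55.5 TPM in *dgt* (log2 fold change -3.60, SE 0.30, edgeR adjusted p = 0.00022). LOC101250532 fell from 88.5, 119.7 and 154 TPM to 16.9, 20.3 and 22.1 TPM (log2 fold change -2.77, SE 0.26, edgeR adjusted p = 0.000377). LOC101265615 fell from 127, 226 and 199 TPM to 38.9, 46.2 and 15.2 TPM (log2 fold change -2.65, SE 0.47, edgeR adjusted p = 0.00634). In these genes the groups were far apart, the highest *dgt* library standing well below the lowest WT library. LOC101259320 fell from 32.3, 43.4 and 30.3 TPM to 14.2, 14.1 and 9.99 TPM (log2 fold change -1.67, SE 0.30, edgeR adjusted p = 0.00702). These 4 falls were called under every alternative.

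The remaining 5 calls lay near the 2-fold limit. Of the 9 calls 4 were kept with upper-quartile scaling, 7 without WT replicate 1, 9 without WT replicate 3, and 6 each without WT replicate 2, *dgt* replicate 1, *dgt* replicate 2 or *dgt* replicate 3. LOC101262597 had a log2 fold change of -1.10, LOC101261707 of -1.06, LOC101256854 of -1.04, yfe37 of -1.02 and LOC101244150 of -1.01. yfe37 had 717, 799 and 495 TPM in WT and 430.5, 385 and 319.6 TPM in *dgt*, without overlap (log2 fold change -1.02, SE 0.30, edgeR adjusted p = 0.0447), and its adjusted p-value was between 0.0850 and 0.168 with upper-quartile scaling, without WT replicate 1 or without any 1 *dgt* replicate. LOC101256854 had adjusted p-values of 0.0927, 0.0677 and 0.106 without *dgt* replicates 1, 2 and 3. Its neighbour LOC112941086, with 1971, 2507 and 2276 TPM in WT and 1386, 1419 and 1060 TPM in *dgt*, had a log2 fold change of -0.99 (SE 0.26, edgeR adjusted p = 0.0322), and its adjusted p-value was between 0.0511 and 0.135 with upper-quartile scaling, without WT replicate 3 or without any 1 *dgt* replicate.

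Among the rises, LOC101257608, the gene with the strongest WT peak, went from 299, 368 and 275 TPM in WT to 1031, 932 and 809 TPM in *dgt* (log2 fold change 1.36, SE 0.27, edgeR adjusted p = 0.0101). Its adjusted p-value was 0.0520 without *dgt* replicate 1. LOC101253552 rose from 41.9, 37.9 and 34.5 TPM to 108, 107 and 102 TPM (log2 fold change 1.30, SE 0.18, edgeR adjusted p = 0.0024). LOC104646517 rose from 30.8, 34 and 34.4 TPM to 92.2, 92.1 and 79.8 TPM (log2 fold change 1.24, SE 0.19, edgeR adjusted p = 0.00347). The *dgt* libraries of all these genes were more than 2-fold above any of their WT libraries. LOC101249416 rose from 40.7, 43.2 and 50.8 TPM to 126, 110.1 and 118 TPM (log2 fold change 1.23, SE 0.17, edgeR adjusted p = 0.00222). The last 3 rises were called under every alternative. Rises under 2-fold with no overlap were led by LOC101253549 (0.95), LOC101258971 (0.94), LOC101257679 (0.84), LOC101252469 (0.81) and LOC101264747 (0.67), all log2 fold changes, and each of these 5 lost its call on leaving out at least 4 of the 6 libraries in turn.

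Outside the meristem, where the members are low by choice, called falls outnumbered called rises. In the elongation zone 193 members passed the filter on low counts and 16 were lower by more than 2-fold (background 4.32%) and 8 higher (background 9.68%). In the differentiation zone 170 passed the filter, 22 were lower (background 4.47%) and 9 higher (background 8.54%). Low WT values in these zones were part of the choice, which favours a rise in *dgt* there, and the members that did not pass the filter were left out. Some passed it only through the genotype in which they were high. In the elongation zone these included LOC101258971, through *dgt*, and LOC101265615 and LOC101265154, through WT. In the differentiation zone they included ER5 and LOC101247301, through *dgt*, and LOC101265615, through WT. The filter favours such calls, and they are held in these counts. The highest count of a tested member over the 6 libraries ran from 14 to 11281 in the elongation zone, with a median of 172, and from 15 to 6218 in the differentiation zone, with a median of 154. At any fold 44 members passed in the elongation zone (background 27.1%) and 68 in the differentiation zone (background 29.5%). The median log2 fold change of the members tested was -0.19 in the elongation zone and -0.29 in the differentiation zone. It was -0.18 and -0.14 for genes over 20 TPM in the WT meristem, and 0.01 in both zones over all genes tested. Without WT replicate 1 the members' elongation zone median was -0.01, and without *dgt* replicate 3 it was -0.04. Of the falls 10 of 16 in the elongation zone and 18 of 22 in the differentiation zone were called under every alternative, and of the rises 3 of 8 and 8 of 9. The elongation zone kept 10 of its falls without WT replicate 1 and 4 of its rises without WT replicate 3.

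**Figure D4:**
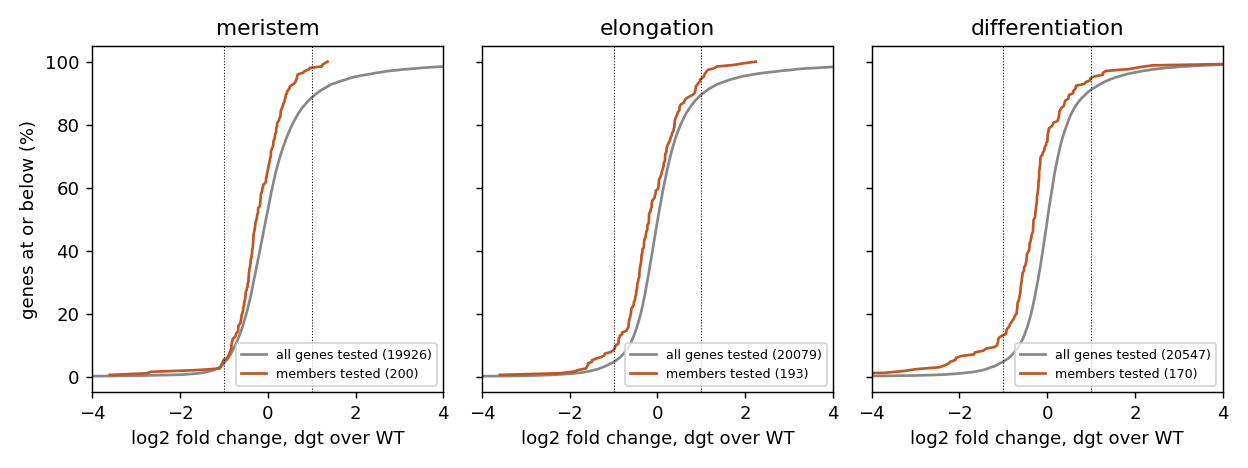
Cumulative share (%) of genes at or below each log2 fold change of *dgt* over WT, for all genes tested and for the members tested in each zone, with dotted lines at 2-fold. The members' curve lies left of all genes at its middle, with medians of -0.25, -0.19 and -0.29, and few members lie beyond 2-fold in the meristem. Genes over 20 TPM in the WT meristem, not drawn, had medians of -0.24, -0.18 and -0.14.

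Falls in both outer zones were found for 10 members, in the elongation zone alone for 6 and in the differentiation zone alone for 12. The 10 included CRF6, LOC104648080, LOC101265615, LOC101243798, LOC101254662 and LOC101254922. The elongation zone call of LOC101243798 was lost without WT replicate 1 or 2 or without *dgt* replicate 1 or 3, with adjusted p-values from 0.0719 to 0.0931. LOC104648080 had 19.9, 19.1 and 18.4 TPM in the WT and 0.86, 2.51 and 3.03 TPM in the *dgt* differentiation zone (log2 fold change -3.26, SE 0.33, edgeR adjusted p = 3.94e-05). LOC101265615 had 4.51, 3.73 and 8.23 TPM in WT and 0, 0 and 0.17 TPM in *dgt*, where at most 1 count was seen in any library. It passed the filter in both outer zones through WT alone, with at most 6 counts in a *dgt* library of the elongation zone. The filter favours its calls in those zones. Only LOC104648080, LOC101265615 and LOC101256854 were called lower in all 3 zones. In all, 49 members were called in at least 1 zone and 151 in none. The shares of all genes called in at least 1 zone, in both outer zones or in all 3 zones were not computed. These counts therefore describe the members alone.

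The other 4 members with falls in both outer zones lie close together. LOC101256568, LOC101256854, LOC112941086 and LOC112941089 are 4 of 6 neighbouring genes in the SLM_r2.1 order. The first 3 have transcripts of 582 bases, and the expected counts of all 4 were not whole in any library, so reads were divided among similar copies and the single values are uncertain. LOC101256568 had 1102, 902 and 822 TPM in the WT elongation zone and 529, 428 and 318 TPM in the *dgt* elongation zone (log2 fold change -1.49, SE 0.24, edgeR adjusted p = 0.000768). In the differentiation zone it had 85.6, 51.5 and 47.6 TPM in WT and 22.9, 12.8 and 29.8 TPM in *dgt* (log2 fold change -1.65, SE 0.33, edgeR adjusted p = 0.00355). The genotypes did not overlap in either zone. In the meristem LOC101256568 had 5140, 5970 and 5810 TPM in WT and 4496, 5052 and 4593 TPM in *dgt*, a difference that did not pass (log2 fold change -0.43, SE 0.25, edgeR adjusted p = 0.245).

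Rises in both outer zones were found for LOC101251231, LOC101247301, ER5 and LOC101252681. LOC101251231 had 0.29, 0.62 and 0.83 TPM in the WT and 2.29, 2.93 and 2.83 TPM in the *dgt* differentiation zone (log2 fold change 2.10, SE 0.31, edgeR adjusted p = 0.000523). ER5 had 0.1, 0 and 0.38 TPM in WT, from at most 4 counts in a library, and 5.32, 7.03 and 2.62 TPM in *dgt* (edgeR adjusted p = 0.000291). LOC101247301 had 0, 0 and 0.06 TPM in WT, from at most 1 count, and 1.81, 0.68 and 2.07 TPM in *dgt*. ER5 and LOC101247301 passed the filter on low counts there through *dgt* alone, which favours their calls. Every *dgt* library of these 3 genes was above every WT library. The elongation zone call of ER5 was lost without WT replicate 2 or 3 or without *dgt* replicate 1 or 2, with adjusted p-values from 0.0658 to 0.0924. The differentiation zone call of LOC101252681 was lost without WT replicate 2, at an adjusted p-value of 0.0694, and without *dgt* replicate 1 or 2, at 0.0660 and 0.0851. LOC101265154 was called in opposite directions. It was lower in the elongation zone (log2 fold change -1.40, SE 0.45, edgeR adjusted p = 0.0398) and higher in the differentiation zone (log2 fold change 1.27, SE 0.24, edgeR adjusted p = 0.00211). In the elongation zone it passed the filter through WT alone, which favours that call. Counts there reached at most 14 in WT and 9 in *dgt*. The elongation zone call was lost with DESeq2, with no filter on low counts and without any 1 library but *dgt* replicate 2, with adjusted p-values from 0.0626 to 0.134.

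An interaction term between genotype and zone, fitted to the 18 libraries together, asked whether *dgt* acted on a member unequally along the root. Between the meristem and the elongation zone 33 members passed (background 15.2%), in 25 of which the effect was lower in the meristem. Between the meristem and the differentiation zone 26 passed (background 13.4%), 13 in each direction. All 200 members entered this fit through their meristem counts, although 7 did not pass the filter on low counts in the elongation zone and 30 did not in the differentiation zone. Of the 26 calls 2, for LOC101249416 and LOC101251790, were of genes that did not pass it in the differentiation zone, and the 33 calls held none that did not pass it in the elongation zone. The 2 tests shared 9 members, and 50 passed at least 1, for which the shares over all genes were not computed. These counts use the WT libraries that chose the members. The choice for high WT meristem and low other WT values favours an effect that is lower in the meristem. Shares over all genes in each direction are not given, so the split of 25 describes the members alone. Without the meristem library of WT replicate 2 the counts of 33 and 26 became 52 and 46. They were 61 and 51 without that replicate in every zone, and 12 and 14 without *dgt* replicate 1. The first count was also 21, 16 and 19 without WT replicate 3, *dgt* replicate 2 and *dgt* replicate 3.

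The 5 members with the smallest interaction p-values between meristem and elongation zone were LOC101248536, LOC101245679, LOC101268254, LOC101252681 and LOC104648080. LOC101248536 had 66.7, 35.1 and 86.5 TPM in the WT and 64.3, 65.5 and 70.8 TPM in the *dgt* meristem, but 2.02, 2.68 and 2.22 TPM in the WT and 10, 10.5 and 8.42 TPM in the *dgt* elongation zone (log2 difference -1.76, SE 0.26, edgeR adjusted p = 0.000198). The genotypes overlapped in the meristem and were well apart in the elongation zone. LOC101268254 had 112, 56.9 and 122 TPM in the WT and 53.4, 58.7 and 60 TPM in the *dgt* meristem, and 8.97, 11.3 and 10.4 and 15.3, 20.7 and 15.2 TPM in the elongation zone (log2 difference -1.28, SE 0.25, edgeR adjusted p = 0.00225). In its WT meristem only replicate 2 was within reach of the *dgt* values. For LOC101245679 the effect was -0.51 in the meristem and 0.97 in the elongation zone as log2 fold changes, and for LOC101252681 it was -0.67 and 1.02. LOC104648080 fell in both zones, by more in the meristem (log2 difference -2.14, SE 0.45, edgeR adjusted p = 0.00352).

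**Figure D5:**
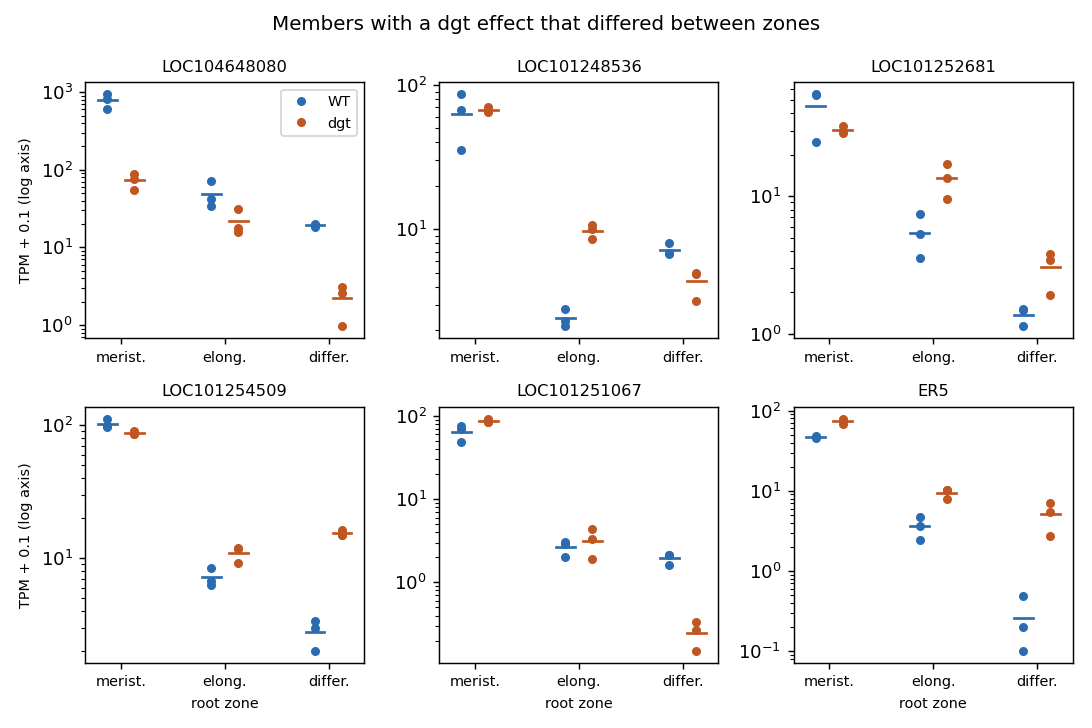
TPM plus 0.1 (log axis) by root zone for 5 members among those with the smallest interaction p-values and for ER5, with one point per library, 3 libraries for each genotype and zone, and a bar at each mean. LOC101254509 was higher and LOC101251067 lower in every *dgt* library of the differentiation zone, with a smaller distance between genotypes in the meristem.

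Between meristem and differentiation zone the 5 members with the smallest interaction p-values were LOC101254509, LOC101259843, LOC101251067, LOC101245157 and LOC101243798. LOC101254509 had 1.9, 2.88 and 3.25 TPM in the WT and 16, 14.9 and 14.8 TPM in the *dgt* differentiation zone, against 97.2, 98.3 and 112 and 86, 85.1 and 90.5 TPM in the meristem (log2 difference -2.81, SE 0.22, edgeR adjusted p = 1.39e-07). LOC101251067 had 2.05, 2.06 and 1.53 TPM in the WT and 0.23, 0.05 and 0.17 TPM in the *dgt* differentiation zone, against 69.4, 48.8 and 75.8 and 83.2, 83.4 and 92.5 TPM in the meristem (log2 difference 3.97, SE 0.47, edgeR adjusted p = 1.22e-05). In the differentiation zone LOC101254509 gained and LOC101251067 lost transcript, with no overlap of the genotypes. Counts of LOC101251067 there reached 37 in WT but at most 4 in *dgt*. It passed the filter in that zone through WT alone, so the size of its difference rests on few *dgt* counts. LOC101259843 (2.53), LOC101245157 (3.34) and LOC101243798 (2.60) shared the positive log2 difference of LOC101251067, and each fell in the *dgt* differentiation zone. All 10 of these interaction calls were kept under every alternative tried.

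Gene lists by symbol held few members. Of the DNA replication and chromatin list of 16 genes only pcna was a member, of 16 ribosome and translation genes only RPL3, of 29 cell wall loosening genes only cel7 and of 33 cytokinin and gibberellin genes only CRF6 and CRF10. None of 74 auxin genes, 81 ethylene genes, 13 stem cell and root patterning genes or 18 water stress and abscisic acid genes was a member, although 15, 14, 1 and 4 of them reached 20 TPM in the WT meristem. In the *dgt* meristem 1 of 23 cell cycle regulators was higher and 1 lower by more than 2-fold, as were 1 and 1 of the 16 replication and chromatin genes, where 10.1% of all genes tested were higher and 2.72% lower. Of 65 auxin genes tested there 15 were higher and 2 lower, against the same background, with a list median log2 fold change of 0.395 and a median over all genes of -0.04.

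A list of 40 genes of the mature root, mainly transporters, aquaporins and peroxidases, held no member. Of its 32 genes tested in the meristem 6 were higher and 2 lower by more than 2-fold in *dgt* (background 10.1% and 2.72%). The list's median log2 fold change there was -0.06. Its summed TPM in the meristem lay between 2310 and 2580 in WT and between 2641 and 3003 in *dgt*. Between 2 and 5 of its genes were at 0 in each meristem library. The sum leant on a few abundant genes: mean TPM went from 482 to 725 for PIP1-5 and from 38.5 to 159.5 for PIP2-6. It was lower in *dgt* for others, such as SlTIP2-2 (152 and 122.5) and TIP (31.6 and 13.3). The part of the difference in summed TPM in the members' values was not tested.

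Most members gave a single transcript. Of 29 with several, the transcript with the largest share in the meristem differed between WT and *dgt* in 2, LOC101258004 and LOC101259971, and in none did a share move by 20 percentage points or more without overlap of the genotypes. Apart from the glycoalkaloid genes and the LOC101256568 group, 6 pairs of members lay within 3 places of each other in the gene order, among them ORFX and LOC101245602.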

How the data were processed

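RNA-Seq libraries were single-end reads from an unstranded kit, and the authors used RSEM to align them to transcripts of the tomato Heinz genome. The deposited gene files hold expected counts, not normalized, and TPM, for which the authors' RSEM run divided by effective transcript length and by the library's sum. The deposited isoform files hold transcript TPM and each transcript's share of its gene in percent. The series tables hold the authors' EBSeq comparisons and were not used. Without strand, reads of a gene and an overlapping antisense gene cannot be told apart, and reads shared by similar copies are divided among them.

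Members were ranked on TPM with 1 added to each mean. Expected counts were rounded and fitted by edgeR 4.0.16 under R 4.3.3 (filterByExpr with a minimum count of 10 and a minimum total of 15, TMM scaling, glmQLFit and glmQLFTest, prior count 0.125) over all genes with Benjamini-Hochberg adjustment. Calls over 2-fold needed an adjusted p-value under 0.05. WT zones were described without a test. Alternatives were DESeq2 1.42.0, upper-quartile scaling, no filter, a replicate block, each replicate left out and other settings of the member rule. Python 3.11.15, numpy 2.4.6, pandas 2.3.3 and matplotlib 3.10.9 did the rest. Procedures were tested on simulated counts. The total expected count per library limits precision less than the spread of 3 replicates, whose lowest chi-square per degree of freedom was 5.00.

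Named members were the 10 ranked highest, those at the threshold, the 5 most abundant in the WT meristem, all with a gene symbol, the 10 largest falls and 10 largest rises without overlap that passed in the *dgt* meristem, the 5 smallest p-values of each interaction and the 5 most variable in the WT meristem. A few others called in the outer zones were named after their values were seen. The members and gene lists were chosen with earlier results of these data known, and the glycoalkaloid list after values were seen. From the symbol lists 41 entries that matched by letters only, such as HMG-CoA enzymes among HMG symbols, were left out after values were seen. Of the members 189 were matched to the RefSeq table of assembly SLM_r2.1 by transcript, 6 by symbol and 5 not at all. It was used for names and gene order only, since the authors used another assembly. Promoter motifs were planned but not analysed here.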

Additional observations from a re-analysis of the deposited data

Results flagged for a closer look

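By the edgeR interaction test over all 18 libraries, the *dgt* effect differed between meristem and elongation zone for 33 members (16.5%, background 15.2%). Between meristem and differentiation zone it differed for 26 members (13%, background 13.4%), so both shares were near that of all genes tested. As log2 differences of the *dgt* effect, the meristem minus the elongation zone, the values were -2.14 for LOC104648080, -1.50 for LOC101245679, -1.28 for LOC101268254, -1.76 for LOC101248536 and -1.71 for LOC101252681. For the meristem minus the differentiation zone they were 3.97 for LOC101251067, 2.60 for LOC101243798, -2.81 for LOC101254509, 2.53 for LOC101259843 and 3.34 for LOC101245157. The value of LOC101251067 rests on at most 4 counts in each *dgt* library of the differentiation zone. Of these 10 genes 7 were lowest in WT meristem replicate 2 among the WT meristem libraries, all but LOC104648080, LOC101254509 and LOC101243798, as were 71 of the 200 members. Its part in these differences was not tested beyond leaving it out, which kept all 10 calls.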

How the results depend on the processing

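With a minimum mean TPM of 50 the rule shared 131 of its 200 genes with the members, and 143 to 187 under its other planned settings, those that left out a WT replicate included (166 to 173). The genes found again in *dgt* numbered 119, and 113 to 124 under the alternatives. Members chosen without WT replicate 1, 2 or 3 and compared with that WT meristem library alone had a median log2 TPM change of 0.034, 0.061 and 0.035 in the *dgt* meristem, against -0.061 (SD 0.033 between libraries). Calls lower over 2-fold in the meristem numbered 9, and 4 with upper-quartile scaling. At any fold the meristem count of 43 was 27 with a replicate block, and 11 to 107 on leaving out each replicate. The elongation zone count of 44 ranged from 29 to 50 and the differentiation zone count of 68 from 55 to 67. The interaction count for the elongation zone ranged from 12 to 61 about 33 and that for the differentiation zone from 14 to 51 about 26. They were 52 and 46 without WT meristem replicate 2 alone, an alternative chosen after seeing the data. The causes were not tested.

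Replicate numbers were not taken as pairs: deviations of WT and *dgt* libraries with 1 number correlated at -0.10 to 0.20 within a zone, and 4 of 9 correlated best with their own number. Over all 45 pairs of libraries with 1 number the range was -0.26 to 0.41, and only the WT elongation and differentiation zones, which no test compared directly, had all 3 pairs over 0.1 (0.14 to 0.41). With the replicate block calls numbered 8 falls and 5 rises in the meristem, 16 falls and 9 rises in the elongation zone, 22 falls and 9 rises in the differentiation zone, and 32 and 26 interactions. It moved the meristem adjusted p-values of GAME1 to 0.0734, LOC101253549 to 0.0567 and LOC101257679 to 0.0582. Of 1860 recomputed values of named genes, 1721 stayed on their side of the threshold, 107 lost and 32 gained it, and none that passed turned its direction. The promoter motif comparison was not run.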
